A study of Homo sapiens with 12 samples.

Results

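The genes described here are 7 members of the DNA damage checkpoint, ATR, ATM, CHEK1, CHEK2, CDKN1A, MDM4 and GADD45A, in human lymphoma cells in which the transcriptional repressor BCL6 was knocked down. Members were every probe set (a group of short array probes read as 1 value) that the platform's probe table assigned to exactly 1 symbol, that symbol being 1 of the 7. This gave 22 probe sets of 41091 with a single symbol, or 7 genes of 19775. Of the 22, 3 were for ATR, 6 for ATM, 4 for CHEK1, 6 for MDM4, and CHEK2, CDKN1A and GADD45A had 1 each. 19 were bright enough to be tested.

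The cells were Pfeiffer and OCI-Ly7, established lines of diffuse large B-cell lymphoma of the germinal centre B-cell type. The 12 arrays were Affymetrix U133 Plus 2.0 chips, 3 in each of 4 groups: Pfeiffer cells transfected with BCL6 siRNA, Pfeiffer cells with non-targeting control oligos, OCI-Ly7 cells with BCL6 siRNA, and OCI-Ly7 cells with non-targeting control oligos. All groups were grown in IMDM with serum, and RNA was taken 48 h after a transient transfection. The titles of the Pfeiffer controls call the oligo an shRNA, while their descriptions and the design text call it an siRNA. The labels do not say if replicate arrays hold RNA of separate cultures. Each p-value therefore measures the spread between these arrays, which may be technical. The RNA came from whole cultures, in which fewer cells of a kind and less RNA per cell cannot be told apart.

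In the checkpoint, the kinases ATR and ATM sense single-stranded DNA at stalled forks and double-strand breaks, and they activate the kinases CHEK1 and CHEK2, which stop the cell cycle. p53 then switches on effectors such as CDKN1A (p21, an inhibitor of cyclin-dependent kinases) and GADD45A (a growth arrest protein), while MDM4 binds and restrains p53. Germinal centre B cells divide fast while they mutate their antibody genes, and BCL6 is known to dampen the damage response there, with ATR, CHEK1 and CDKN1A among the genes it has been described to repress. The question asked of these arrays was whether checkpoint transcripts were higher once BCL6 had been lowered.

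Values are log2(signal + 16), where signal is the deposited array brightness, and a difference between groups is on that scale, which understates the change of dim probe sets. A probe set was called when its adjusted p (limma on all 12 arrays, Benjamini-Hochberg over 20546 probe sets, two-sided) was under 0.05. The 20546 were the brighter part by the higher of the line means, with a level of at least 7.24 (a signal of 135). The standard error (SE) of a difference is from the same limma fit, which pools the spread of all groups.

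Promoter sequences are shown for CHEK1 and MDM4, which were called higher in Pfeiffer, and for CDKN1A, the p53 effector that was not called in either line. Each is the 250 bases before a gene start, 5′ to 3′ on the gene's strand, from RefSeq on GRCh38.p14. Capitals mark matches to any of 4 motifs searched on both strands: the BCL6 motif TTCCTNGAA, the E2F motif TTTNNCGC, the CCAAT box CCAAT and the GC box GGGCGG, read as ATTGG and CCGCCC where the match lies on the opposite strand.
CHEK1, chr11:125625974-125626223, plus strand: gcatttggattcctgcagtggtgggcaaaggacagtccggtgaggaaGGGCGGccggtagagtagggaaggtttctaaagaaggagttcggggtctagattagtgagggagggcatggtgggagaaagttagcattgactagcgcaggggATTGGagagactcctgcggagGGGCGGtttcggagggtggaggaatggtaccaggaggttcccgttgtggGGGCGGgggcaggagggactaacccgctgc
MDM4, chr1:204516156-204516405, plus strand: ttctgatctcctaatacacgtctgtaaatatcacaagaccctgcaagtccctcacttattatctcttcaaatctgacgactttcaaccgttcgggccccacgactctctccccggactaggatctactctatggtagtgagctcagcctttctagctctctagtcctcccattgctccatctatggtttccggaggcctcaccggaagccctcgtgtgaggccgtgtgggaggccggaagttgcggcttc
CDKN1A, chr6:36678464-36678713, plus strand: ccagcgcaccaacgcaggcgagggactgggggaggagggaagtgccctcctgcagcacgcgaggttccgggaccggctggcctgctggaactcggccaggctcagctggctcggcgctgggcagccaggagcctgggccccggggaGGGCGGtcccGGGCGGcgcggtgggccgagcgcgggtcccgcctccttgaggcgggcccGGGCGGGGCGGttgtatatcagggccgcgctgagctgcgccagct
The CHEK1 window holds 3 GC boxes and 1 CCAAT box. CDKN1A has 4 GC boxes, of which the pair nearest the start overlap each other, and MDM4 has no match. The RefSeq table held 9 windows for 6 of the members. CHEK1 had several that overlap each other and ATM had more than 1, so the windows are not independent. GADD45A was matched to none. None of the 9 windows held the BCL6 motif, which 480 of 35116 windows of that length held (1.37%). The E2F motif was in 1 of the 9, that of CHEK2, 9 bases before its start, against 5.92% of all windows. CCAAT boxes and GC boxes were each in 6 of the 9, against 32.0% and 42.6% of all windows. The CCAAT boxes lay in windows of ATM, CHEK1 and CHEK2 alone, and the GC boxes in those of ATR, CHEK1, CHEK2 and CDKN1A. Both counts of 6 therefore include the same stretch of CHEK1 more than once. These matches describe letters within 250 bases and no binding.

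BCL6 itself, the target of the siRNA, was lower on the siRNA arrays of both lines. The probe set 203140_at read 13.11, 13.04 and 12.75 on the Pfeiffer siRNA arrays, against 13.86, 13.92 and 14.01 on the Pfeiffer control arrays, a difference of -0.96 that left 51.3% of the control level (limma adjusted p = 8.41e-07). In OCI-Ly7 it read 13.13, 13.10 and 13.15 on the siRNA arrays, against 13.50, 13.57 and 13.59 on the control arrays, a difference of -0.42 that left 74.6% (limma adjusted p = 0.0103). The groups did not overlap in either line. The fall was larger in Pfeiffer by 0.54 on the log2 scale (limma adjusted p for the difference between lines = 0.00653). The other BCL6 probe sets differed by -1.29 (215990_s_at) and -0.97 (228758_at) in Pfeiffer, against -0.49 and -0.17 in OCI-Ly7, the last of which was not called (limma adjusted p = 0.429). Both lines kept much of their BCL6 transcript, so the comparisons below are of a partial knockdown.

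Arrays of a group correlated at 0.916 to 0.924 over all 54675 probe sets, and arrays of different lines at 0.824 to 0.833. Pfeiffer siRNA array 3 stood apart in its GAPDH and ACTB controls, whose 3′ minus 5′ signal was -0.03 and 0.39, against -0.15 to -0.09 and at most 0.31 on the other arrays. 3 member genes were called in Pfeiffer with that array and 3 without it. Markers of cell types were read on their brightest probe set and held against a level of 7.91, the lowest at which genes were tested. All 5 B cell markers on the table were above it in every group, and none of the T cell, NK cell or monocyte markers was in any. Summed B cell marker signal was 29319 to 33356 on the Pfeiffer siRNA arrays and 44015 to 44520 on the Pfeiffer control arrays, while in OCI-Ly7 it was 59313 to 60434 with siRNA and 49486 to 51685 with control oligos. The epithelial genes EPCAM and KRT18 were above 7.91 in both Pfeiffer groups and in neither OCI-Ly7 group. The brighter of these genes averaged 13.87 with siRNA and 14.06 with control oligos in Pfeiffer. The other epithelial marker, KRT8, was below the level there (7.87 with siRNA and 7.78 with control oligos). Of the fibroblast markers COL1A1 alone passed 7.91, in both Pfeiffer groups (8.64 with siRNA and 8.40 with control oligos) and barely in the OCI-Ly7 controls (7.92). The part of these markers in the results below was not tested.

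In Pfeiffer cells, 6 of the 19 tested probe sets were called higher with BCL6 siRNA and none lower. They belong to 3 genes, CHEK1, MDM4 and GADD45A. Over all probe sets 6.11% were called higher and 6.33% lower, 12.4% in either direction. ATR, ATM, CHEK2 and CDKN1A had no called probe set. At an unadjusted limma p under 0.05 there were 8 members, 7 higher and 1 lower, where 25.2% of all probe sets reached that level. The median member difference was 0.11, against 0.00 over all probe sets. Of the 19, 12 were positive, where 50.7% of all probe sets were, and probe sets of 1 gene are not independent. On 7 members every siRNA array lay above every control array, where 14.5% of all probe sets did so, and on none did every siRNA array lie below, where 14.8% did.

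In OCI-Ly7 cells none of the 19 was called, where 1.61% of all probe sets were (0.92% higher and 0.691% lower). At an unadjusted limma p under 0.05 there were 3 members, all of them ATM probe sets with lower siRNA values, where 12.9% of all probe sets reached that level. The median member difference was -0.03, against -0.00 over all probe sets. Of the 19, 13 were negative and 6 positive, where 49.7% of all probe sets were positive. Every siRNA array lay above every control array on 1 member (10.5% of all probe sets) and below on 4 (10.3%).

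**Figure D1:**
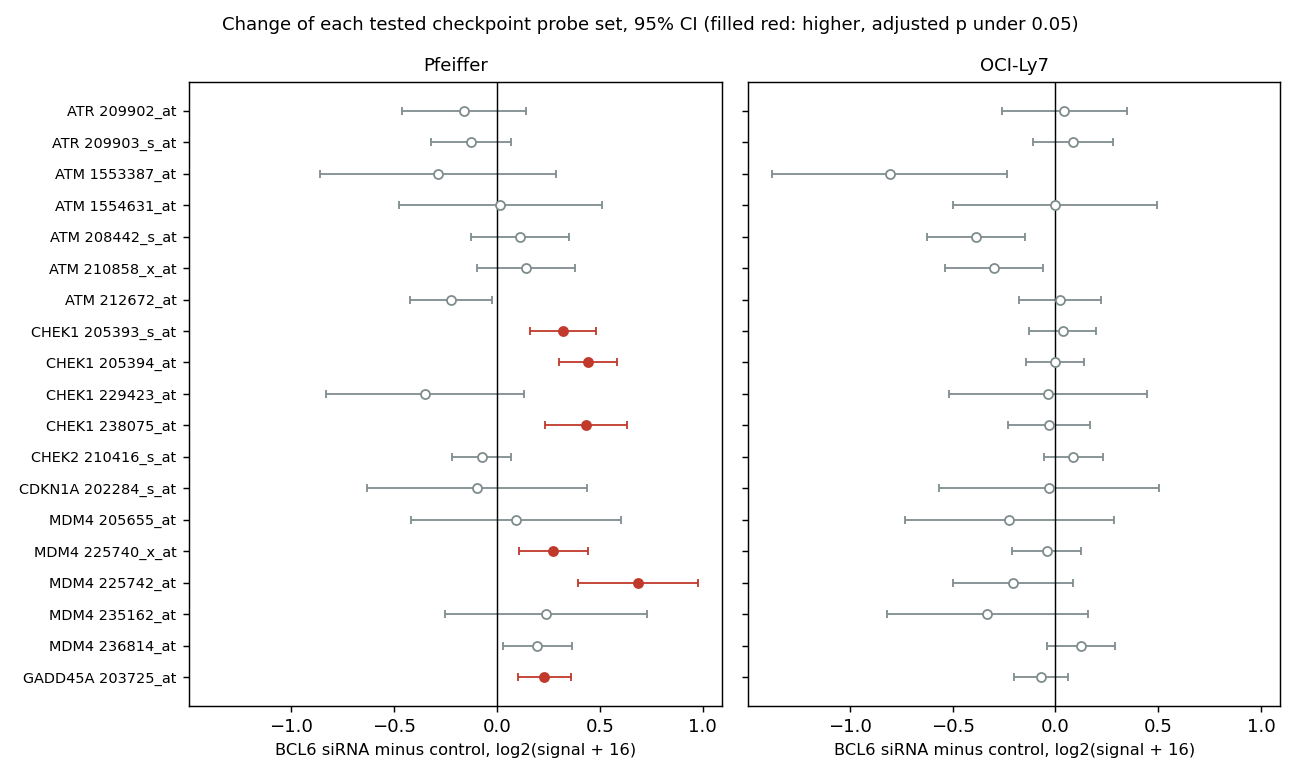
BCL6 siRNA minus control difference, on the log2(signal + 16) scale, of the 19 tested checkpoint probe sets in Pfeiffer (left) and OCI-Ly7 (right), with 95% confidence intervals from limma. Filled red points were called higher; 6 probe sets of CHEK1, MDM4 and GADD45A are filled in Pfeiffer and none in OCI-Ly7.

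ATR, the kinase of stalled replication forks, was not called in either line. Probe set 209903_s_at read 11.07, 10.86 and 10.69 on the Pfeiffer siRNA arrays, against 10.89, 11.11 and 11.02 on the control arrays. The groups overlap, and the difference was -0.13 (95% CI -0.32 to 0.07, limma adjusted p = 0.430). In OCI-Ly7 it read 10.03, 10.07 and 10.03 with siRNA, against 9.98, 10.02 and 9.88 with control oligos. Here the 3 siRNA arrays lay just above the 3 controls, by 0.08 on average (95% CI -0.11 to 0.28, limma adjusted p = 0.782). The second probe set, 209902_at, differed by -0.16 in Pfeiffer (95% CI -0.46 to 0.14) and 0.04 in OCI-Ly7 (95% CI -0.26 to 0.35). Neither probe set of ATR reached the size of the CHEK1 change within its interval in Pfeiffer.

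ATM, the kinase of double-strand breaks, had 5 tested probe sets and none was called. The brightest, 212672_at, read 11.07, 11.13 and 10.68 on the Pfeiffer siRNA arrays, against 11.23, 11.24 and 11.08 on the controls, a difference of -0.22 (95% CI -0.42 to -0.02, limma adjusted p = 0.150). Pfeiffer siRNA array 3 was the lowest of the 6, and the groups overlap. In OCI-Ly7 the same probe set read 12.005, 12.02 and 12.14 with siRNA, against 12.06, 12.02 and 12.03 with control oligos, a difference of 0.02. The OCI-Ly7 groups overlap.

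Other ATM probe sets read lower in OCI-Ly7, short of the threshold. Probe set 208442_s_at read 10.29, 10.85 and 10.46 with siRNA, against 10.89, 10.97 and 10.90 with control oligos, a difference of -0.38 (95% CI -0.62 to -0.15, limma adjusted p = 0.118). All 3 siRNA arrays lay below the controls, and siRNA array 2 lay closest to them. Without that array the difference was -0.54 and the probe set was called lower (limma adjusted p = 0.0100), as it was with array weights (-0.43, adjusted p = 0.0405). For 210858_x_at the difference in OCI-Ly7 was -0.30 (limma adjusted p = 0.255), and -0.45 without siRNA array 2 (adjusted p = 0.0367). The dim 1553387_at read 7.35, 7.18 and 7.17 with siRNA, against 8.07, 7.86 and 8.19 with control oligos, a difference of -0.81 (95% CI -1.38 to -0.23, limma adjusted p = 0.182). ATM probe sets thus disagree within OCI-Ly7, where 212672_at and 1554631_at were level (0.02 and -0.00) and 3 others read lower. In Pfeiffer the differences of 208442_s_at, 210858_x_at and 1553387_at were 0.11, 0.14 and -0.29, none called, and the last is below the tested level there.

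CHEK1, the kinase activated by ATR, was higher in Pfeiffer on 3 of its 4 probe sets. Probe set 205394_at read 11.43, 11.33 and 11.37 on the Pfeiffer siRNA arrays, against 10.83, 11.05 and 10.91 on the control arrays. Every siRNA array exceeded every control, by 0.45 ± 0.07 on average (limma SE), or 1.36-fold (limma adjusted p = 0.000375). In OCI-Ly7 it read 11.41, 11.34 and 11.44 with siRNA, against 11.40, 11.35 and 11.45 with control oligos. These 6 arrays interleave, with a difference of -0.00 (95% CI -0.14 to 0.14, adjusted p = 0.990). The effect was larger in Pfeiffer than in OCI-Ly7 by 0.45 (95% CI 0.25 to 0.65, limma adjusted p = 0.00913).

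The same direction was measured on 2 more CHEK1 probe sets. Probe set 238075_at read 10.41, 10.37 and 10.34 on the Pfeiffer siRNA arrays, against 9.99, 10.01 and 9.83 on the controls, without overlap, a difference of 0.43 ± 0.09 (SE, limma adjusted p = 0.00673). Probe set 205393_s_at read 11.34, 11.26 and 11.12 with siRNA, against 10.90, 11.02 and 10.83 with control oligos, a difference of 0.32 ± 0.08 (SE, limma adjusted p = 0.0120). In OCI-Ly7 they differed by -0.03 and 0.04. The excess of the Pfeiffer effect was 0.46 for 238075_at (limma adjusted p = 0.0506) and 0.29 for 205393_s_at (adjusted p = 0.141), neither past the threshold. The call of 205393_s_at in Pfeiffer was lost without control array 3 (limma adjusted p = 0.0586) or siRNA array 1 (adjusted p = 0.0543). The fourth, 229423_at, went against the others: it read 7.20, 7.32 and 6.65 with siRNA in Pfeiffer, against 7.46, 7.65 and 7.10 with control oligos (-0.35, limma adjusted p = 0.372). Its groups overlap, and it was the dimmest CHEK1 probe set. With the 4 averaged into 1 value the Pfeiffer difference was 0.21 and not called (limma adjusted p = 0.179).

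CHEK2, the kinase activated by ATM, has 1 probe set, 210416_s_at. It read 12.14, 12.18 and 12.18 on the Pfeiffer siRNA arrays, against 12.30, 12.25 and 12.18 on the controls, a difference of -0.07 (95% CI -0.22 to 0.07, limma adjusted p = 0.557). In OCI-Ly7 it read 11.19, 11.06 and 11.09 with siRNA, against 10.90, 11.02 and 11.16 with control oligos, a difference of 0.09 (95% CI -0.06 to 0.23, adjusted p = 0.667). The groups overlap in both lines. These are among the narrowest intervals of the members.

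MDM4, the p53-binding inhibitor, was called higher in Pfeiffer on 2 of its 5 tested probe sets. Probe set 225742_at read 7.78, 8.09 and 8.26 on the Pfeiffer siRNA arrays, against 7.16, 7.31 and 7.61 on the controls. It is dim in Pfeiffer, with mean signals of 250 and 150, and its control mean of 7.36 was just above the tested level of 7.24. The siRNA arrays all lay above the controls, by 0.68 ± 0.14 (limma SE), or 1.61-fold (limma adjusted p = 0.00388). In OCI-Ly7 the order was turned round: 10.60, 10.86 and 10.73 with siRNA, all below 10.99, 10.92 and 10.89 with control oligos, a difference of -0.21 that was not called (limma adjusted p = 0.584). The Pfeiffer effect exceeded that of OCI-Ly7 by 0.89 (95% CI 0.48 to 1.30, limma adjusted p = 0.0118). Fitted on the 6 Pfeiffer arrays alone, the Pfeiffer difference of this probe set missed the threshold (adjusted p = 0.0529).

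The second called MDM4 probe set, 225740_x_at, read 10.44, 10.43 and 10.13 on the Pfeiffer siRNA arrays, against 10.07, 10.04 and 10.05 on the controls, a difference of 0.28 ± 0.08 (SE, limma adjusted p = 0.0309). Its siRNA array 3 lay close to the controls. The call was lost without any 1 of control arrays 1, 2 and 3 or siRNA arrays 1 and 2, with limma adjusted p of 0.0690 to 0.120. The brightest, 236814_at, read 10.54, 10.75 and 10.58 with siRNA in Pfeiffer, against 10.40, 10.53 and 10.34 with control oligos, without overlap but short of the threshold (0.20, limma adjusted p = 0.124). In OCI-Ly7 225740_x_at and 236814_at differed by -0.04 and 0.12. The other tested MDM4 probe sets, 205655_at and 235162_at, differed by 0.09 and 0.24 in Pfeiffer and by -0.22 and -0.33 in OCI-Ly7, none of them called. The 5 tested MDM4 probe sets had positive differences in Pfeiffer, while the dim sixth, 241876_at, stood at -0.21 in the fit without a filter. The mean over all 6 probe sets of the gene was 0.21 and not called (limma adjusted p = 0.264).

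CDKN1A, the p21 cell cycle inhibitor, was not called in either line. Probe set 202284_s_at read 8.78, 9.05 and 8.67 on the Pfeiffer siRNA arrays, against 9.23, 8.59 and 8.97 on the controls, mean signals of 443 and 480. The difference was -0.10 with a wide interval (95% CI -0.63 to 0.44, limma adjusted p = 0.863). In OCI-Ly7 it read 5.19, 6.03 and 5.46 with siRNA, against 5.42, 5.60 and 5.76 with control oligos, mean signals of 32.6 and 32.4, below the tested level. The OCI-Ly7 difference was -0.03 (95% CI -0.57 to 0.50). The groups overlap in both lines, and both intervals include differences as large as those called for GADD45A (0.23) and CHEK1 205393_s_at (0.32) in Pfeiffer.

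GADD45A, the growth arrest protein, was slightly higher in Pfeiffer. Probe set 203725_at read 12.02, 12.15 and 12.09 on the Pfeiffer siRNA arrays, against 11.87, 11.86 and 11.83 on the controls. All siRNA arrays lay above the controls, by 0.23 ± 0.06 (limma SE), or 1.17-fold (limma adjusted p = 0.0221). In OCI-Ly7 it read 12.02, 12.02 and 12.22 with siRNA, against 12.16, 12.18 and 12.14 with control oligos, a difference of -0.07 (95% CI -0.20 to 0.06, adjusted p = 0.705), with siRNA array 3 above all others. The Pfeiffer call was lost without any 1 control array or without siRNA array 2 (limma adjusted p of 0.0528 to 0.0839). The difference between lines was 0.30 (limma adjusted p = 0.0503), and with 1 probe set per gene its adjusted p was 0.0394.

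**Figure D2:**
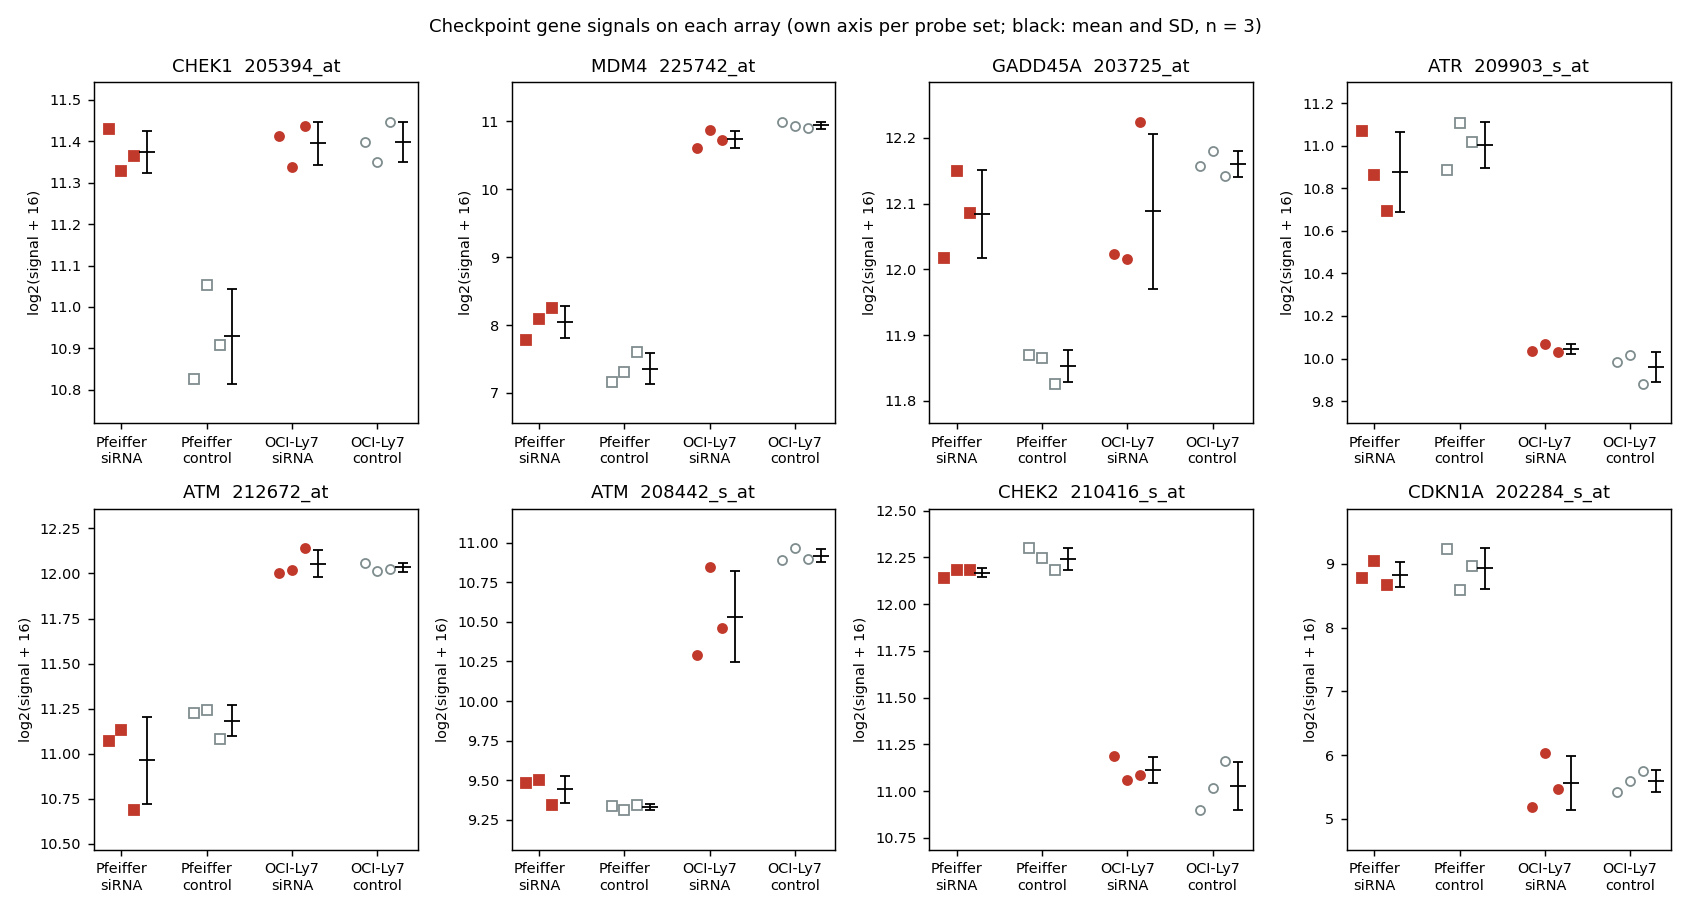
Log2(signal + 16) on each array for 8 checkpoint probe sets, each with its own axis; squares are Pfeiffer, circles OCI-Ly7, filled red BCL6 siRNA, open grey control, and black bars the mean and SD of 3 arrays. For CHEK1 205394_at the Pfeiffer siRNA arrays lie at 11.33 to 11.43, above the Pfeiffer controls at 10.83 to 11.05 and level with the OCI-Ly7 arrays.

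Set against each other, the lines differed in their response on 2 of the 19 probe sets, CHEK1 205394_at and MDM4 225742_at, both with the higher effect in Pfeiffer. Over all probe sets 6.43% differed, 2.99% with the higher effect in Pfeiffer and 3.44% with the lower. For the 4 genes with no called change no difference between lines was called either. ATM 208442_s_at came nearest, at 0.50 (limma adjusted p = 0.0796). For ATR 209903_s_at it was -0.21 (adjusted p = 0.392), for CHEK2 -0.16 (adjusted p = 0.382) and for CDKN1A -0.07 (adjusted p = 0.946).

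The lines were also compared without BCL6 siRNA. Of the 19 probe sets, 4 were called higher and 14 lower in Pfeiffer controls than in OCI-Ly7 controls. Over all probe sets 75% were called, 35.7% higher and 39.2% lower. Of the 19, 5 were above the tested level in 1 line alone, so that their direction was fixed by the filter: CDKN1A 202284_s_at through Pfeiffer, and ATM 1553387_at, ATM 1554631_at, MDM4 205655_at and CHEK1 229423_at through OCI-Ly7. CDKN1A has no other probe set. Tested probe sets of any 1 gene went the same way, but the dim ATR 233288_at, in the fit without a filter, was lower in Pfeiffer (-2.11, limma adjusted p = 0.00134), and the mean of the 3 ATR probe sets was not called (0.11, adjusted p = 0.573). The tested probe set that was not called was CHEK1 229423_at (-0.50, limma adjusted p = 0.0568).

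CDKN1A had mean levels of 8.93 ± 0.32 in Pfeiffer controls and 5.59 ± 0.17 in OCI-Ly7 controls (SD, n = 3 each), or mean signals of 480 and 32.4, given as a description since the filter fixed their direction. ATR 209903_s_at averaged 11.003 ± 0.11 in Pfeiffer and 9.96 ± 0.07 in OCI-Ly7 controls, a difference of 1.04. CHEK2 averaged 12.24 ± 0.06 in Pfeiffer and 11.03 ± 0.13 in OCI-Ly7 controls, a difference of 1.22. The ATR probe sets above the tested level and CHEK2 were thus higher in Pfeiffer.

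MDM4 ran the other way. Its 4 probe sets above the tested level in both lines gave Pfeiffer minus OCI-Ly7 differences of -3.58 to -2.38, with 225742_at at 7.36 ± 0.23 in Pfeiffer and 10.94 ± 0.05 in OCI-Ly7 controls. ATM was lower in Pfeiffer on the 3 probe sets above the tested level in both lines, with differences of -1.59 to -0.85. CHEK1 205394_at averaged 10.93 ± 0.11 in Pfeiffer and 11.40 ± 0.05 in OCI-Ly7 controls, a difference of -0.47, and GADD45A 11.85 ± 0.02 and 12.16 ± 0.02, a difference of -0.31 (limma adjusted p = 0.000316). The genes called higher after the knockdown in Pfeiffer, CHEK1, MDM4 and GADD45A, were thus all lower in Pfeiffer controls than in OCI-Ly7 controls. Both comparisons use the same Pfeiffer control arrays, and a low reading there moves both results, so the match of directions is only a description. ATM was lower in Pfeiffer controls too and was not called after the knockdown. For MDM4 225742_at the Pfeiffer siRNA arrays, at 8.04 ± 0.24, stayed far below either OCI-Ly7 group. For CHEK1 205394_at the Pfeiffer siRNA mean (11.37 ± 0.05) lay within the spread of the OCI-Ly7 siRNA and control arrays (11.40 ± 0.05 each). Pfeiffer siRNA array 2, at 11.33, was just below the lowest OCI-Ly7 array, at 11.34. The Pfeiffer controls lay below those 3 groups.

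**Figure D3:**
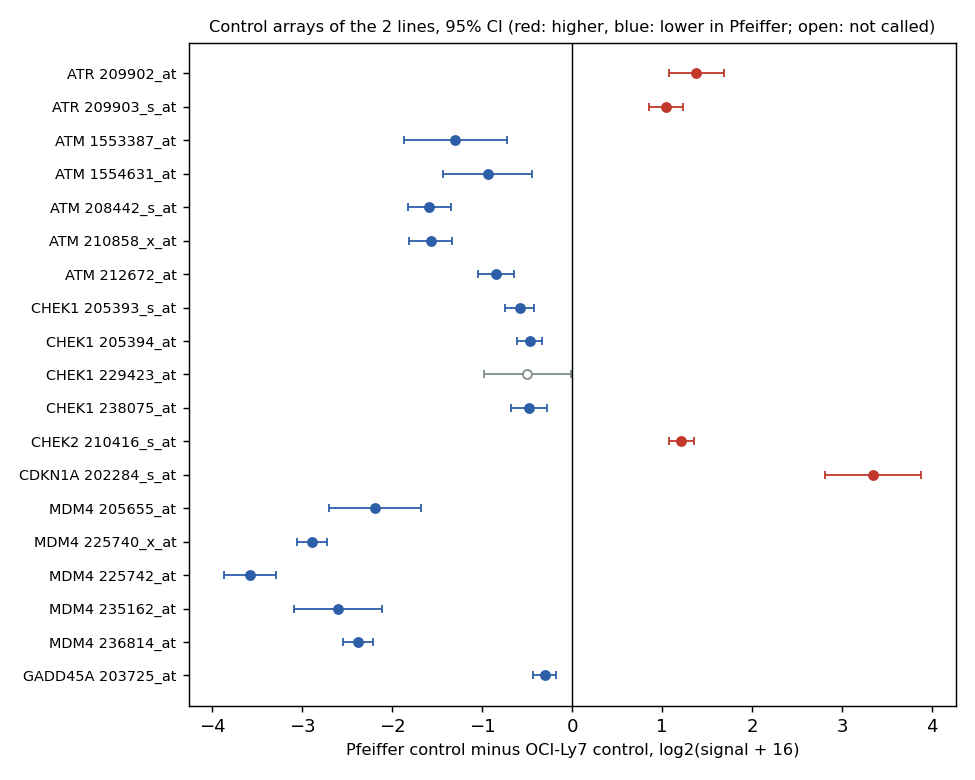
Pfeiffer control minus OCI-Ly7 control difference, on the log2(signal + 16) scale, of the 19 tested checkpoint probe sets with 95% confidence intervals from limma. Red points (ATR, CHEK2, CDKN1A) were called higher and blue points (ATM, MDM4, GADD45A and 3 of CHEK1) lower in Pfeiffer, and the open point is CHEK1 229423_at; the direction was fixed by the filter for CDKN1A, ATM 1553387_at and 1554631_at, MDM4 205655_at and CHEK1 229423_at.

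ATM 1570352_at (7.13) and MDM4 241876_at (7.11) were just below the tested level by the higher of their line means, ATR 233288_at (6.26) was further below it, and ATM 1553387_at (7.64) and 1554631_at (7.69) just above. Fitted without a filter, none of the 3 dim probe sets was called between siRNA and control arrays in either line.

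Other genes of the checkpoint pathways were counted list by list, beside the share of all genes called. In these lists each gene was read on its brightest probe set, and 7.9% of 9888 genes were called higher and 8.31% lower in Pfeiffer, against 1.69% higher and 0.991% lower in OCI-Ly7, with medians of 0.00 and 0.01 over all genes. Of 13 tested partners of ATR and CHEK1, 1 was called higher in Pfeiffer, RPA3 (0.21, limma adjusted p = 0.0211), a subunit of the single-strand binding protein RPA, and none in OCI-Ly7. Values short of the threshold in Pfeiffer were 0.35 for HUS1, a part of the 9-1-1 clamp, 0.37 for the phosphatase CDC25A and -0.22 for RPA1. The list's median was 0.10 in Pfeiffer and 0.02 in OCI-Ly7. The count of 1 became 0 without Pfeiffer siRNA array 2 or control array 1 or 3, and 2 without control array 2. Without control array 3, 1 gene of the list was called lower in Pfeiffer.

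Of 13 tested partners of ATM and CHEK2, 2 were called higher in Pfeiffer: MDC1 (0.29, limma adjusted p = 0.0203), a scaffold at breaks, and the phosphatase CDC25C (0.31, adjusted p = 0.0435). None was called in OCI-Ly7, where the ubiquitin ligase RNF168 stood at 0.31 (limma adjusted p = 0.0669). The medians were 0.09 in Pfeiffer and 0.06 in OCI-Ly7. The Pfeiffer count of 2 became 1 without Pfeiffer siRNA array 3, Pfeiffer control array 1 or 3, or any of 4 OCI-Ly7 arrays (siRNA 1, 2 and 3 and control 1). The OCI-Ly7 count became 1 without OCI-Ly7 siRNA array 2 or Pfeiffer siRNA array 3. Among 9 tested regulators of p53, USP7, a deubiquitinase of MDM2 and p53, was called higher in OCI-Ly7 (0.46, limma adjusted p = 0.0212), and none was called in Pfeiffer, where USP7 stood at 0.24 (adjusted p = 0.113). Their medians were 0.00 in Pfeiffer and 0.08 in OCI-Ly7. The OCI-Ly7 count of 1 became 0 without OCI-Ly7 siRNA array 1 or 3 or control array 1 or 2, and the Pfeiffer count became 1 without Pfeiffer siRNA array 2.

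Targets of p53 were split. Of 19 tested, 2 were called higher and 1 lower in Pfeiffer: TP53INP1 (0.95, limma adjusted p = 0.000723), the translesion polymerase gene POLH (0.79, adjusted p = 6.46e-05) and, lower, ZMAT3 (-0.63, adjusted p = 0.00290). In OCI-Ly7 the damage-binding protein gene DDB2 alone was called, higher (0.56, limma adjusted p = 0.00155). The medians were 0.05 in Pfeiffer and -0.05 in OCI-Ly7. With each array left out in turn, 2 to 3 p53 targets were called higher in Pfeiffer (3 without siRNA array 3) and 1 lower. Of the 3 tested relatives of GADD45A and CDKN1A, 2 were called higher in Pfeiffer and none in OCI-Ly7. CDKN1B, the p27 inhibitor, was at 0.73 (limma adjusted p = 1.13e-05) and GADD45B at 0.31 (adjusted p = 0.0214) in Pfeiffer. Without Pfeiffer siRNA array 3, or control array 2 or 3, the count of 2 became 1, and the highest count with an array left out was 3.

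Genes of the cell cycle were counted in the same way. CHEK1 is itself known to be transcribed mainly in cycling cells. In Pfeiffer 9 of 17 S phase genes and 9 of 17 G2/M genes were called higher, with medians of 0.20 and 0.21, none being called lower. Others did not pass, such as the kinase gene BUB1B (0.04) and UHRF1 (-0.13). RRM2, a ribonucleotide reductase subunit, was at 0.56, CCNE2 (cyclin E2) at 0.49, BUB1, a spindle checkpoint kinase, at 0.83 and the proliferation marker MKI67 at 0.54. In OCI-Ly7 no gene of either list was called, with medians of -0.01 and -0.02. With each array left out in turn, 7 to 9 genes of each list were called higher in Pfeiffer, and 1 S phase gene was called lower without siRNA array 1. The part of these genes in the CHEK1 result was not tested.

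**Figure D4:**
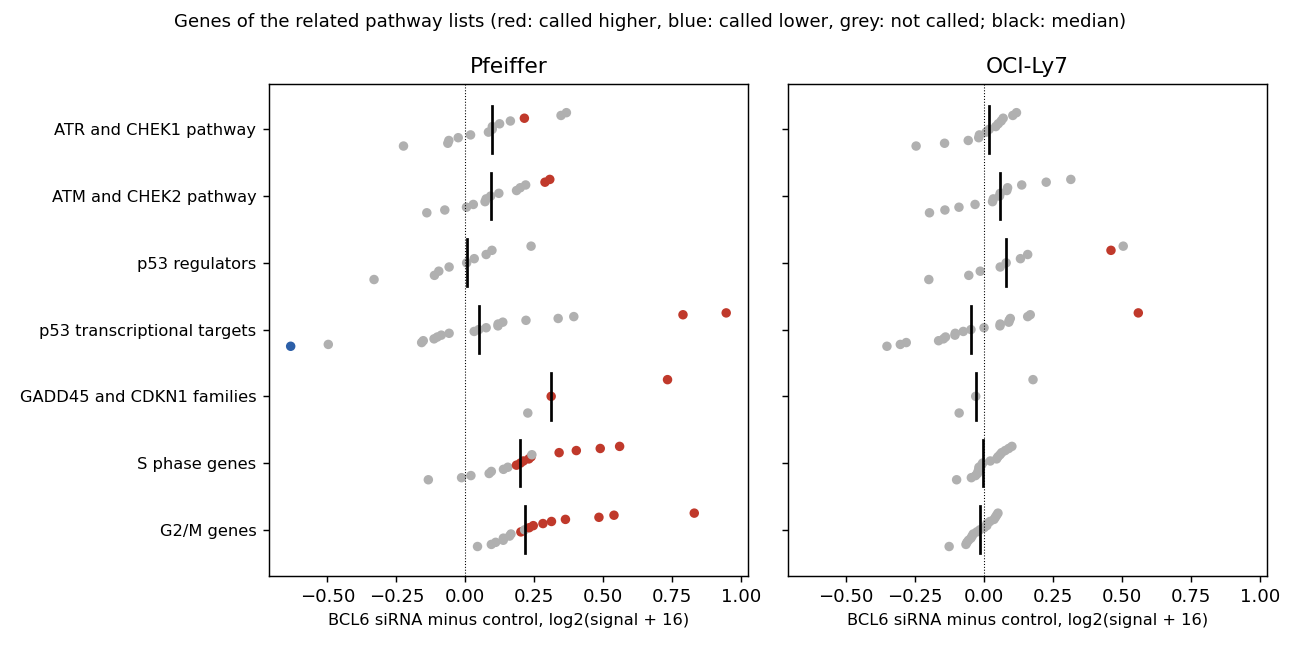
BCL6 siRNA minus control difference, on the log2(signal + 16) scale, of each tested gene of 7 related lists in Pfeiffer (left) and OCI-Ly7 (right), red where called higher, blue lower, grey not called, with a black bar at the median. Most S phase and G2/M genes lie to the right of 0 in Pfeiffer, with medians of 0.20 and 0.21, and around 0 in OCI-Ly7.

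For each gene with a called probe set, the genes closest in pattern to its brightest probe set were ranked by Pearson's r over the 12 arrays, after each line's mean had been subtracted, among 9887 genes; the arrays share treatment and line, so r is a description. Most like CHEK1 (205393_s_at) were AGGF1 (0.974), GTPBP4 (0.969) and TSPAN13 (0.959). MDM4 (236814_at, itself not called) was most like MIAT (0.903), PLEKHF2 (0.896) and ZCCHC2 (0.895). For GADD45A they were ASNS, the asparagine synthetase gene (0.919), ARID3B (0.908) and PMF1 (0.906). The 3 genes most like CHEK1 differed by 0.31 to 0.87 in Pfeiffer and by 0.01 to 0.05 in OCI-Ly7.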

How the data were processed

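Total RNA of 12 samples was profiled on 1 array each. The authors deposited log2 signals made with MAS5 in the affy package, per the submitters' processing notes, whose versions are not given in the sources used here; the linear signals have a trimmed mean of 500 on every array. MAS5 scaling sets all arrays to 1 level, so differences are relative to it. Probe sets were named from the platform's probe table, and 1801 with several symbols were not used. A pseudocount of 16 was added to the linear signals before log2. The 20546 single-symbol probe sets that ranked in the upper 0.5 by the higher line mean were fitted with limma 3.58.1 in R 4.3.3 (4 group means, eBayes with trend, Benjamini-Hochberg adjustment, two-sided, threshold 0.05). The labels give no batch, and precision is limited by having 3 arrays per group. An exact permutation test of 3 against 3 arrays cannot go below p = 0.1 and was not used. Same-numbered siRNA and control arrays did not deviate together (r of -0.04 to 0.06), so arrays were not paired. For pathway lists each gene was read on its brightest probe set (9888 genes). Named list genes were the 4 with the lowest p per list and line, of which some are given. BUB1B and UHRF1 were named outside this rule, as examples of genes that were not called. The script was tested on simulated data. The fit missed some simulated log2 changes of 1, and the pass mark for their recovery was lowered after it had first been missed. Members and lists were chosen with earlier results of these data known. All tested genes of the lists entered the counts and medians, and the values of those not named are not given. Alternatives covered normalization, pseudocount, filter, probe set choice, the limma settings and each array left out.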

Additional observations from a re-analysis of the deposited data

Results flagged for a closer look

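For 2 checkpoint probe sets the effect of BCL6 siRNA differed between the lines by the interaction term of the limma fit. CHEK1 205394_at differed by 0.45 on the log2 scale (adjusted p = 0.00913), the effect being 0.45 in Pfeiffer and -0.00 in OCI-Ly7. MDM4 225742_at differed by 0.89 (adjusted p = 0.0118), the effect being 0.68 in Pfeiffer and -0.21 in OCI-Ly7. This probe set is dim in Pfeiffer, where its control mean of 7.36 was just above the tested level of 7.24. The fall of BCL6 differed between the lines as well, by -0.54 on 203140_at, and its part in these differences was not tested.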

How the results depend on the processing

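No member difference called between siRNA and control arrays, or between the lines' responses, changed direction under the alternatives, and the cause of the shifts below was not tested. Member genes with a called probe set numbered 0 in OCI-Ly7, but 1 with array weights and 0 to 1 with each array left out (ATM, without siRNA array 2). In Pfeiffer they numbered 3, but 2 with the brightest probe set per gene (CHEK1 and GADD45A) and 2 without trend (CHEK1 and MDM4). Averaging a gene's probe sets (the mean per gene) left 1 in Pfeiffer, GADD45A. Member genes with a called probe set numbered 2 to 3 there with each array left out. For the difference between lines they numbered 2, but 1 with the brightest probe set per gene, 0 with the mean per gene and 4 with array weights (2 to 3 with each array left out). Over all probe sets, calls in OCI-Ly7 numbered 331, against 187 with no filter, 133 with the mean per gene, 166 without _x_at and _s_at probe sets, 125 without trend, 508 with array weights, 182 with the replicate block, and 121 to 415 with each array left out. In Pfeiffer 2556 were called, against 1603 with the brightest, 1027 with the mean per gene and 1398 without _x_at and _s_at probe sets (1735 to 2484 with each array left out). The difference between lines had 1321, against 870, 534 and 699 under those 3 settings and 862 without trend (928 to 1456 with each array left out). Between control groups 15406 were called, against 7867, 7283 and 9852 under them and 8577 with a stricter filter on dim probe sets (14730 to 15580). The first 3 settings test fewer features.

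Called members that lost their call with all arrays kept were MDM4 225740_x_at in Pfeiffer (limma adjusted p of 0.0573 with no filter, 0.0895 without trend, 0.0546 with the replicate block and 0.107 on the 6 Pfeiffer arrays alone), GADD45A without trend (0.0763) and MDM4 225742_at on the 6 arrays alone (0.0529). The replicate block, for numbers that do not pair the arrays, changed no other member call.

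Signs turned with quantile normalization for ATM 1554631_at (0.031 in OCI-Ly7, -0.015 in Pfeiffer) and CDKN1A in OCI-Ly7 (0.005). With array weights they turned for CHEK1 205394_at (0.008), CHEK1 229423_at (0.013) and ATR 209902_at (-0.021) in OCI-Ly7 and ATM 1554631_at in Pfeiffer (-0.017). With each array left out, differences spanned 0 in OCI-Ly7 for CHEK1 205393_s_at (-0.0069 to 0.086), 205394_at (-0.028 to 0.025), 229423_at (-0.15 to 0.13) and 238075_at (-0.11 to 0.078), ATR 209902_at (-0.12 to 0.14), ATM 212672_at (-0.022 to 0.047) and 1554631_at (-0.084 to 0.097), MDM4 225740_x_at (-0.070 to 0.0016) and CDKN1A (-0.27 to 0.15). In Pfeiffer they did for ATM 1553387_at (-0.46 to 0.017) and 1554631_at (-0.14 to 0.23), CDKN1A (-0.27 to 0.052), MDM4 205655_at (-0.16 to 0.34) and 235162_at (-0.066 to 0.48). None of these was called. Signal over background limits CDKN1A in OCI-Ly7 and the dim ATM, CHEK1 and MDM4 probe sets in Pfeiffer, where a change would show only if large.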
